A study of Mus musculus with 18 samples.

Results

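Activated B cells of mouse spleen were compared between mice built to delete the histone methyltransferase G9a in B cells (KO) and control mice (Ctrl), 72 h after injection of lipopolysaccharide (LPS), a bacterial cell wall component that drives B cells to divide and to become antibody-secreting cells. The comparison uses 6 of the 18 RNA-seq libraries of the series, 3 Ctrl and 3 KO, numbered 1, 3 and 4 in each group and chosen by cell type and genotype in the labels. Ctrl mice were heterozygous for Cd19Cre (Cd19Cre/+) and KO mice carried G9afl/fl with Cd19Cre/+, so every mouse compared carried 1 copy of this allele, which makes the recombinase Cre in B lineage cells. All of them received 50 µg LPS in 100 µl by the tail vein. Live cells without F4/80, Cd11b or Thy1.2 and with B220 and GL7 were sorted, and each library was made from 1000 of them with SMART-seq v4 and Nextera XT. The labels give no age and do not say whether replicates were different mice, so p-values reflect only the spread of these libraries, which may be technical. The other libraries hold naive B cells and plasma cells of the same genotypes, and plasma cells are used below for 1 comparison.

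G9a, the product of Ehmt2, works with its partner GLP and methylates histone H3 at lysine 9, adding 1 or 2 methyl groups that mark silent chromatin. An activated B cell that becomes a plasma cell shuts down the B cell program under Blimp1 (Prdm1) and builds the secretory apparatus under Xbp1, which acts in the unfolded protein response (UPR). That response raises chaperones, degradation factors and transport machinery of the endoplasmic reticulum (ER) when secretory load is high.

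Values are RPKM, read numbers corrected for gene length and library depth, then scaled between libraries. They are listed in the order of libraries 1, 3 and 4 of each group. Changes are KO minus Ctrl on the log2(scaled RPKM + 1) scale, which understates the change of low genes, and were tested with limma over 10067 genes of the 6 libraries. Depth, estimated from the steps between low values, was 6740000 to 7760000 reads in Ctrl and 10820000, 2660000 and 10640000 in KO 1, 3 and 4, so KO 3 was the shallowest library. The estimate is rough, since at that depth 34.4% to 38.7% of the low values scored came within 0.1 of a whole read. Between libraries of a group, correlations were 0.988 to 0.994 and the median SD of a gene was 0.121 in Ctrl and 0.124 in KO on the log2 scale.

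The sorted cells expressed the listed markers of activated B cells in both genotypes, at unlike levels. Zbtb32, Batf and Top2a measured 348 to 402, 93.2 to 146 and 90.9 to 121 over the 6 libraries, and Fas 6.15 to 9.97. In either direction, 0 of the 10 activated B cell markers passed limma (1 higher and 0 lower at an unadjusted p under 0.05). Naive Ctrl libraries, as deposited, had less Mki67 (1.075 to 1.685) but more Myc (87.4 to 94.4) and Irf4 (59.2 to 102). In activated Ctrl these genes measured 47.0 to 56.1, 32.2 to 34.1 and 43.7 to 50.9. Of 10 B cell markers 7 were lower in KO, with summed levels of 8394.6 to 9575 in Ctrl and 6476 to 8002 in KO. Of 7 plasma cell markers tested 4 were lower, with sums of 912 to 1022 in Ctrl and 384 to 489 in KO. The surface marker Sdc1 (CD138), not among the 4, was low in both groups. It measured 1.35, 1.35 and 0.771 in Ctrl and 0.478, 0.666 and 0.677 in KO, without overlap. Of 11 monocyte and macrophage markers in the file 6 were tested, of which Ly6c2 was higher and Adgre1 (F4/80) lower (not with plasma cell libraries in the fit, limma adjusted p = 0.0782); their summed level was 59.5 to 62.3 in Ctrl and 138 to 174 in KO, most of the latter from Ly6c2. In KO 3 some of them stood above every other library: Lyz2, lysozyme of myeloid cells, measured 2.39, 0.484 and 2.07 in Ctrl and 1.20, 27.6 and 0.611 in KO, and complement C1qa, C1qb and C1qc measured 1.75, 2.14 and 1.08 in KO 3 and 0 in KO 1 and KO 4. Others did not, since Mpeg1 was 5.50 in KO 3 beside 11.6 and 9.25 in KO 1 and KO 4, Cd68 was 13.4 beside 13.4 and 15.2, and Adgre1 was 0.824 beside 0.616 and 0.326. The T cell receptor gene Cd3e was at most 0.706 in any library. In bulk RNA, fewer cells of a type and less RNA per cell cannot be told apart.

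Ehmt2 (Entrez 110147, chromosome 17 from 34898463 to 34914073, GRCm38) measured 22.8, 20.6 and 26.96 in Ctrl and 24.4, 23.6 and 22.7 in KO. The groups overlapped and the change was 0.02 (limma adjusted p = 0.933). These values count the whole gene, including the exons that remain after Cre acts, so they do not check the deletion.

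With KO, 828 genes were higher (8.22% of those tested) and 931 lower (9.25%) at a limma adjusted p under 0.05. Most changes were small. The median size was 0.455 among higher genes and 0.53 among lower genes, and 54 higher and 79 lower genes changed at least 2-fold on the log2(scaled RPKM + 1) scale. At least 4-fold changes numbered 13 higher and 3 lower. Without any overlap between the libraries of the groups were 1860 genes higher (18.5%) and 1957 lower (19.4%). The 6 libraries were fitted alone because the naive libraries are noisier; a fit of all 18 libraries, called the 18-library fit below, called 55 higher and 174 lower. At an unadjusted p under 0.05, the gene lists described below with 0 higher had 0 to 2 members higher, and those with 0 lower had 0 to 3 lower. Leaving out 1 library gave 462 higher and 619 lower without Ctrl 1, 393 and 571 without Ctrl 4 and 391 and 579 without KO 1.

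**Figure D1:**
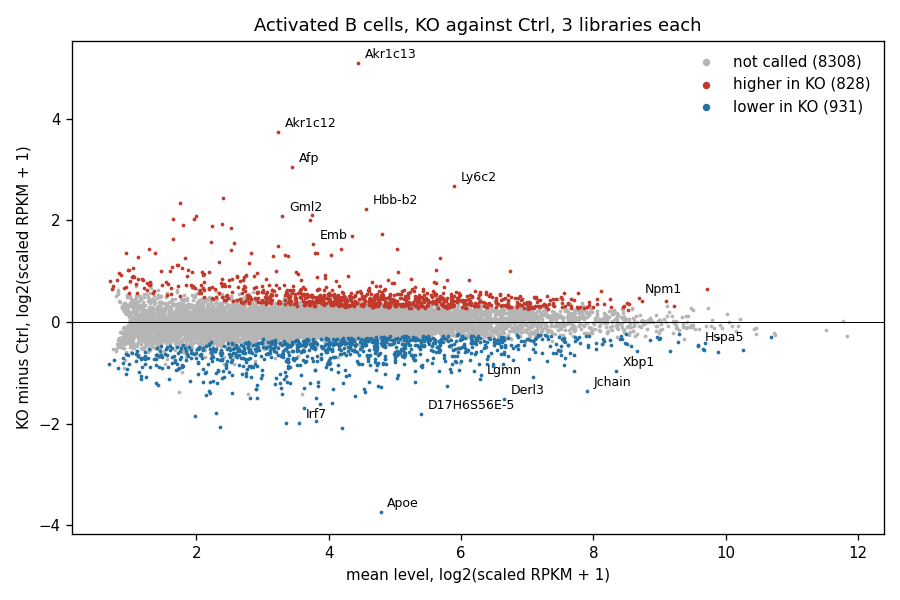
Each point is 1 of the 10067 genes tested, with its mean level over both groups on the x axis and its KO minus Ctrl change on the y axis, both as log2(scaled RPKM + 1). Red points (828) were higher and blue points (931) lower in KO at a limma adjusted p under 0.05; Akr1c13 stands farthest above 0 and Apoe farthest below.

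The 3 largest rises were in genes with low levels in every Ctrl library. Akr1c13, an aldo-keto reductase (chromosome 13 from 4191168 to 4205604), measured 0.240, 0.519 and 0 in Ctrl and 41.7, 38.4 and 43.8 in KO (log2 change 5.10, SE 0.15, limma adjusted p = 1.4e-08). Its neighbour Akr1c12 measured 0.241, 0.416 and 0.237 in Ctrl and 15.7, 13.2 and 20.5 in KO (limma adjusted p = 3.0e-07). The fetal serum protein gene Afp (chromosome 5 from 90490714 to 90508907) measured 1.57, 0.920 and 1.68 in Ctrl and 18.8, 17.2 and 19.4 in KO (log2 change 3.04, SE 0.14, limma adjusted p = 5.3e-07). In all 3 genes the KO libraries lay close together and far above every Ctrl library. Akr1e1, the other tested aldo-keto reductase of the cluster, was expressed in both groups, at 6.76, 5.90 and 7.15 in Ctrl and 15.5, 13.3 and 13.5 in KO (log2 change 0.99, limma adjusted p = 0.000317). These 3 genes were consecutive among the tested genes of chromosome 13. The fitted sizes depend on the pseudocount where Ctrl is near 0: with 5 in place of 1 the changes were 3.14 for Akr1c13, 2.01 for Akr1c12 and 1.88 for Afp. The Akr1c genes are close copies, so reads may be split or shared between them.

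The promoters of these 3 genes are shown because their RNA rose from low levels while CpG dinucleotides, the usual site of DNA methylation, are rare in them. The lines give the 100 bases before the start site, 5′ to 3′ on the gene's strand, from RefSeq promoter windows on GRCm38.p6, with each CpG in capitals.
Akr1c13, chr13:4191087-4191186 (+): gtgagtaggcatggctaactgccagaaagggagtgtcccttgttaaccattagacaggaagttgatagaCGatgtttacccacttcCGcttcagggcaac
Akr1c12, chr13:4279400-4279499 (-): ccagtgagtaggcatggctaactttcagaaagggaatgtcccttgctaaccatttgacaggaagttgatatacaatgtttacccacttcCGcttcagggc
Afp, chr5:90490614-90490713 (+): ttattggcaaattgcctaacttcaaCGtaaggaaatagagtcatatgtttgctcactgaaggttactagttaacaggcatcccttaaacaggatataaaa
Over the 300-base windows of tested genes, the median ratio of observed to expected CpG was 0.811 (8183 genes), 0.831 in higher genes and 0.723 in lower genes. It was 0.384 in the 37 higher genes with Ctrl under 1 RPKM that had a window, beside 0.565 in all 111 such low genes which all passed the filter through KO, and 0.268 in the 42 higher genes that changed at least 2-fold.

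Surface proteins of the Ly6 and Gml cluster on chromosome 15 were among the genes that rose most. Ly6c2, a glycolipid-anchored protein of myeloid and some lymphoid cells, measured 18.3, 13.7 and 13.3 in Ctrl and 98.9, 106 and 100.3 in KO (log2 change 2.68, SE 0.12, limma adjusted p = 3.0e-07). Gml2 measured 2.32, 3.01 and 2.85 in Ctrl and 13.3, 17.3 and 14.2 in KO (log2 change 2.09, limma adjusted p = 6.5e-06), and Gml measured 13.1, 11.2 and 11.1 in Ctrl and 35.4, 47.8 and 42.6 in KO (log2 change 1.74, limma adjusted p = 1.2e-05). The groups did not overlap in any of the 3, and these were the only members called among 9 tested of the list, whose median change was 0.34. The count was 5 with library weights and 5 without KO 3. Reads may be shared between Gml and Gml2 and between Ly6c2 and its neighbour copies.

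Genes of red blood cells were also higher. The β-globin Hbb-b2 measured 7.30, 6.50 and 8.33 in Ctrl and 42.4, 32.4 and 39.2 in KO (log2 change 2.22, limma adjusted p = 2.1e-06), Hbb-bs rose by 2.001, and Car2, carbonic anhydrase of red cells, measured 3.57, 5.15 and 3.42 in Ctrl and 22.96, 23.9 and 15.9 in KO (log2 change 2.12, limma adjusted p = 3.4e-05). All KO libraries lay above all Ctrl libraries in these genes. Summed over the 4 erythroid markers in the file, levels were 15.4 to 17.0 in Ctrl and 71.7 to 89.5 in KO, while the α-globin Hba-a2 stayed at 0 to 0.902 in all 6 libraries; the part of red cell RNA in this was not tested. With plasma cell libraries in the fit Hbb-bs was not called (limma adjusted p = 0.0631). Markers and factors of other lineages moved both ways. The cytotoxic granule gene Prf1 rose by 1.07, while Gzmb, the other tested natural killer cell marker, measured 1.57, 0 and 2.16 in Ctrl and 0.0638, 1.07 and 0.521 in KO and did not pass (it was called lower without Ctrl 3, limma adjusted p = 0.0419). The kinase Lck, which T cells and some B cells make, measured 7.03, 7.80 and 6.61 in Ctrl and 13.2, 11.0 and 10.5 in KO (log2 change 0.62, limma adjusted p = 0.00577), beside Cd3e at or near 0. The platelet marker Pf4 fell by 0.82 from 1.26, 0.653 and 1.24 in Ctrl, a call that was lost without KO 3 or KO 4 (limma adjusted p = 0.0606 and 0.0553). Of 12 tested factors of other blood lineages 4 fell (Cebpb, Cebpd, Tbx21 and Zeb2) and 1, Id2, rose (median -0.26). The higher count is close to the 8.22% higher over all genes tested, of which 9.25% were lower. The lower count was 2 in the 18-library fit, and the higher count 0 in the 18-library fit and 2 with library weights.

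A few genes on a list of germline and testis genes rose, some of which were already expressed in Ctrl. Of 57 on the list 22 were in the file and 13 reached 1 RPKM and were tested; 5 rose (all of the Xlr family but Wfdc15a) and 1, Tdrd7, fell. Wfdc15a, Rnf17 and Xlr3c passed the filter only through KO, where they were higher, so the median of the 13 (0.54) is not that of the list: over the 22 with no filter it was -0.035, as in the 18-library fit. Wfdc15a, a secreted protease inhibitor-like gene, measured 0, 0.275 and 0 in Ctrl and 3.11, 4.87 and 5.94 in KO (log2 change 2.35, limma adjusted p = 7.0e-05). The X-linked Xlr3b, of a family of meiotic chromatin proteins, measured 3.21, 1.58 and 1.26 in Ctrl and 11.1, 6.55 and 5.87 in KO (log2 change 1.56, limma adjusted p = 0.00265). In naive Ctrl libraries, as deposited, Xlr3b measured 10.8 to 15.6. Xlr4c measured 8.88, 7.94 and 8.39 in activated Ctrl and rose by 0.60. Xlr3a, Xlr3b and Xlr4a were consecutive tested genes that rose, and close copies in this family may share reads. Gtsf1, a factor of the piRNA pathway that was not on the list, measured 0.206, 1.06 and 0.404 in Ctrl and 5.14, 5.77 and 4.73 in KO (log2 change 2.03, limma adjusted p = 0.00012). The count of higher germline genes was 3 with no filter on low values, 3 with a filter at 5 RPKM, 3 in the 12-library fit, 2 in the 18-library fit, 3 with no trend in eBayes and 3 without Ctrl 1, Ctrl 3, KO 1 or KO 4.

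Other genes that rose at least 2-fold had varied roles. Emb (embigin), a partner of lactate transporters, measured 5.77, 6.44 and 5.78 in Ctrl and 20.5, 19.3 and 17.97 in KO (log2 change 1.53, SE 0.10, limma adjusted p = 9.0e-06). Gpr34, a receptor for lysophosphatidylserine, measured 8.44, 8.88 and 8.91 in Ctrl and 21.3, 27.7 and 28.1 in KO (log2 change 1.44, limma adjusted p = 3.4e-05). Pdcd1lg2, which encodes the PD-1 ligand PD-L2, rose by 1.57, while Cd274, which encodes PD-L1, fell by 0.55 (limma adjusted p = 0.00389). The 2 ligands thus moved in opposite directions, without overlap between groups in either. Sh2d1b1, an adaptor of SLAM family receptors, rose by 1.93. AF067061, a gene with no described role, rose by 2.44, and the noncoding RNA gene AI427809 on chromosome 4 rose by 2.09 from under 1 RPKM in Ctrl. The last 2 changes were 1.18 and 0.91 with a pseudocount of 5.

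The largest fall was in Apoe, the apolipoprotein that carries cholesterol out of cells. It measured 25.3, 63.1 and 63.2 in Ctrl and 2.93, 2.70 and 2.15 in KO (log2 change -3.74, SE 0.28, limma adjusted p = 2.3e-05), so that even the lowest Ctrl library, Ctrl 1, stood far above the KO libraries. Pltp, a phospholipid transfer protein, measured 6.49, 5.81 and 7.58 in Ctrl and 1.505, 0.839 and 1.33 in KO (log2 change -1.78, limma adjusted p = 6.4e-05). Both are targets of the sterol sensor LXR. Ephx1, an epoxide hydrolase, measured 16.4, 18.2 and 29.4 in Ctrl and 6.56, 3.57 and 4.11 in KO (log2 change -1.95, limma adjusted p = 0.000317), and Pdk2, a kinase that restrains pyruvate dehydrogenase, measured 4.66, 4.13 and 6.76 in Ctrl and 0.760, 0.502 and 0.856 in KO (log2 change -1.84, limma adjusted p = 0.000121). Other large falls were Tmem52 (-2.07), Prg2 (-1.98), Hid1 (-1.70), Adssl1 (-1.61), an enzyme of purine nucleotide synthesis, Ckb (-1.59), brain-type creatine kinase, and Serinc5 (-1.501). Pinlyp measured 30.9, 30.5 and 21.4 in Ctrl and 3.23, 3.63 and 14.3 in KO; its KO libraries were uneven, and robust eBayes ended its call (limma adjusted p = 0.0577).

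**Figure D2:**
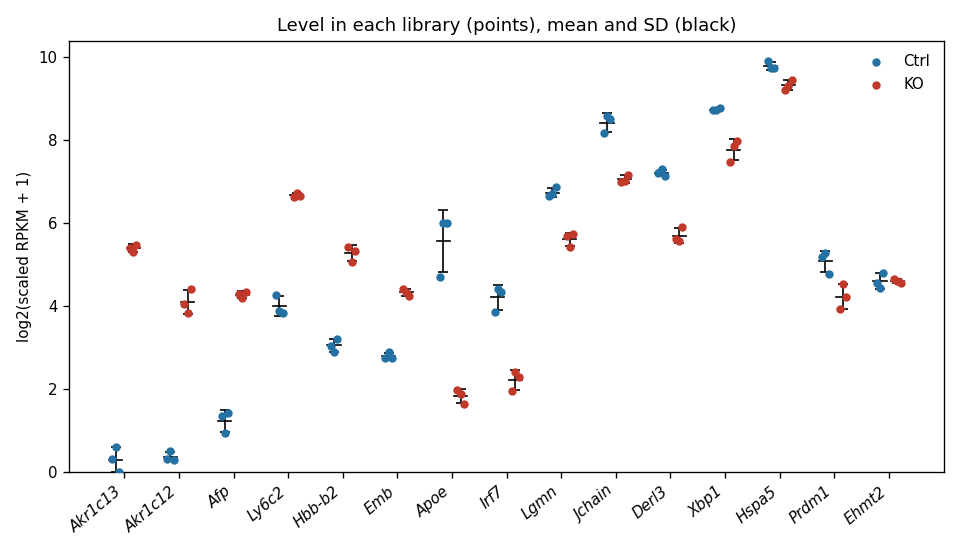
Level of 15 genes in each of the 6 libraries as log2(scaled RPKM + 1), Ctrl in blue and KO in red, with the mean and SD in black. Akr1c13, Akr1c12, Afp, Ly6c2, Hbb-b2 and Emb separate upward in KO, the genes from Apoe to Prdm1 separate downward, and Ehmt2 overlaps.

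The plasma cell program was lower in KO among cells that the sort had selected as B220+GL7+ in both groups. Of 34 tested genes of the list 20 fell and 1, Ly6c2, rose, with a median change of -0.51 beside -0.004 over all genes tested. Jchain, the joining chain of secreted antibody, measured 287, 383 and 367 in Ctrl and 127, 128 and 144 in KO (log2 change -1.36, SE 0.11, limma adjusted p = 3.4e-05). Xbp1 (chromosome 11 from 5520641 to 5525993) measured 422, 422 and 437 in Ctrl and 178, 231 and 251 in KO (log2 change -0.97, SE 0.11, limma adjusted p = 0.000342), and Prdm1 measured 35.2, 37.8 and 26.6 in Ctrl and 14.3, 22.3 and 17.6 in KO (log2 change -0.85, SE 0.16, limma adjusted p = 0.00605). In all 3 genes every KO library lay below every Ctrl library, and KO 1 was the lowest. Bhlha15, also called Mist1, a factor that scales up secretory cells, measured 30.6, 30.8 and 36.4 in Ctrl and 9.72, 12.8 and 13.8 in KO (log2 change -1.37, limma adjusted p = 9.4e-05). The antibody folding factor Mzb1 measured 899, 993 and 975 in Ctrl and 594, 691 and 688 in KO (log2 change -0.54, limma adjusted p = 0.00184). Irf4, which is also needed for plasma cell formation, measured 45.5, 50.9 and 43.7 in Ctrl and 33.5, 51.3 and 45.3 in KO and did not pass (log2 change -0.12, limma adjusted p = 0.569); its groups overlapped. The count of lower genes was 6 in the 18-library fit.

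Much of the ER machinery fell, and these lists share some genes with the plasma cell program. Of 39 tested ER chaperones and folding enzymes 24 fell and 0 rose, with a median of -0.40. Hspa5, the main ER chaperone (BiP), measured 961, 853 and 864 in Ctrl and 598, 633 and 704 in KO (log2 change -0.47, SE 0.08, limma adjusted p = 0.00432), and Hsp90b1, the ER form of Hsp90, measured 988, 902 and 942 in Ctrl and 642, 711 and 766 in KO (log2 change -0.42, limma adjusted p = 0.00651). Both fell by well under 2-fold from very high levels. Larger falls were in Fkbp11, a prolyl isomerase of secretory cells (-1.06), Ero1lb, an oxidase that drives disulfide formation (-0.78), and Hspa13 (-0.76). The disulfide isomerases Txndc5 and Pdia4 fell by 0.64 and 0.57. Calreticulin (Calr, -0.21), Pdia6 (-0.29) and calnexin (Canx, 0.30) did not pass, with limma adjusted p of 0.0819, 0.0508 and 0.137. Calr was called without KO 3 (limma adjusted p = 0.0382), with library weights (0.0124) and with plasma cell libraries in the fit (0.02845). Pdia6 was called without Ctrl 4 or KO 4 (limma adjusted p = 0.0321 and 0.0318) and with a filter at 5 RPKM (0.0424). It was also called with library weights (limma adjusted p = 0.0128), robust eBayes (0.0444) and plasma cell libraries in the fit (0.0111). The count of lower chaperones was 14 in the 18-library fit.

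Sensors and degradation factors of the UPR moved the same way. Of 19 sensors and effectors 10 fell and 0 rose (median -0.45). Creb3l2, a membrane-bound transcription factor, measured 13.1, 11.7 and 9.84 in Ctrl and 3.44, 3.31 and 7.17 in KO (log2 change -1.21, limma adjusted p = 0.00472), with KO 4 above the other KO libraries. Ddit3 (CHOP) fell by 0.85 and Ppp1r15a (GADD34), which reverses the block on translation, by 0.45. Of 29 genes of ER-associated degradation 10 fell and 0 rose (median -0.24). Derl3, a channel component for misfolded proteins, measured 146, 156 and 141 in Ctrl and 48.0, 47.0 and 59.2 in KO (log2 change -1.51, SE 0.10, limma adjusted p = 8.7e-06). Herpud1 measured 248, 211 and 262 in Ctrl and 111, 143 and 146 in KO (log2 change -0.85, limma adjusted p = 0.000927); Sel1l and the ubiquitin ligase Syvn1, which form a complex, fell by 0.71 and 0.49. The mannosidase-like Edem1 fell by 0.67, and the cochaperone Dnajb9, a direct target of spliced Xbp1, measured 32.8, 32.9 and 34.5 in Ctrl and 14.9, 15.6 and 21.1 in KO (log2 change -0.94, limma adjusted p = 0.000736). The count of lower sensors and effectors was 2 in the 18-library fit and 6 without Ctrl 1, and that of lower degradation genes 4 in the 18-library fit.

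Genes of the steps before and after folding fell too. Of 27 genes of translocation and signal peptide processing 19 fell and 0 rose (median -0.37), among them the signal peptide peptidase H13 (-0.79), Tram2 (-0.84) and Ssr4 (-0.59). Of 40 genes of N-glycosylation 9 fell (median -0.13), among them Krtcap2 (-0.60) and Ddost (-0.38), both of the transferase that attaches the glycan, Gmppa (-0.48) and Slc35b1 (-0.48). Of 46 genes of vesicle transport to the Golgi 12 fell (median -0.18), among them the fusion factor Stx5a (-0.74), the coat subunit Sec24d (-0.72), Bet1 (-0.68) and Arf4 (-0.44). None of the 3 lists had a member that rose. The counts were 5 in the 18-library fit and 11 without KO 1 for translocation, 1 in the 18-library fit for N-glycosylation and 1 in the 18-library fit, 5 without Ctrl 1 or KO 1, 7 without Ctrl 3 and 6 without Ctrl 4 for vesicle transport. The differences between the lists' counts were not tested.

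The sequences below are shown because promoters of UPR targets are known to carry the ER stress response element (ERSE), a CCAAT box and a CCACG box held 9 bases apart. The letters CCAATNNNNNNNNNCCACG were searched on both strands of the 300-base RefSeq windows (250 bases before and 50 after the start, GRCm38.p6). They were in 39 of 32851 windows (0.119%) and in those of 19 of 8183 tested genes (0.232%). Of the 19 genes 7 were lower, 2 were higher (Xlr3b and Xlr3a) and the median change was -0.21. Each line below gives 1 match in the promoter of a gene that fell, with 20 bases on either side. It runs 5′ to 3′ on the gene's strand, with both boxes in capitals (CGTGG and ATTGG where the element runs in reverse). The lines for Hsp90b1 come from the same promoter.
Derl3, chr10:75893222-75893280 (+): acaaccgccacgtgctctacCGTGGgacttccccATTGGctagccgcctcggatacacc
Ero1lb, chr13:12565662-12565720 (+): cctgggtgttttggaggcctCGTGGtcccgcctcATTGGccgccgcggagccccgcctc
Creld2, chr15:88819500-88819558 (+): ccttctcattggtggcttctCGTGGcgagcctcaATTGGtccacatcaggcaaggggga
Dnajc3, chr14:118937807-118937865 (+): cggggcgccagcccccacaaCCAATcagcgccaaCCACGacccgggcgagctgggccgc
Syvn1, chr19:6046512-6046570 (+): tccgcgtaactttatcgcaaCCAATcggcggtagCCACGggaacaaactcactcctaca
Hspa5, chr2:34772005-34772063 (+): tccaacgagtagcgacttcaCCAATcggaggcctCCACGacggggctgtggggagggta
Hsp90b1, chr10:86705618-86705676 (-): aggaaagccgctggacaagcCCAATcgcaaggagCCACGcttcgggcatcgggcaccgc
Hsp90b1, chr10:86705513-86705571 (-): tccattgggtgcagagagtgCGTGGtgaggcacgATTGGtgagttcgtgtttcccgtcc
These 7 genes fell by 0.42 (Hsp90b1) to 1.51 (Derl3), and the stress-induced Creld2 measured 253, 249.8 and 257 in Ctrl and 129, 179 and 180.2 in KO (log2 change -0.65, limma adjusted p = 0.00483). Pdia6, Calr and Canx, which hold the element too, were not called, though Pdia6 and Calr were called lower under some alternatives given above. Among ER chaperones with a window, 8 of 33 (24.2%) held it. Of those called lower, 5 of 20 held it, a similar share, so it did not mark which chaperones fell. A match is a run of letters, not a measured binding site, and Xbp1 binding was not measured.

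**Figure D3:**
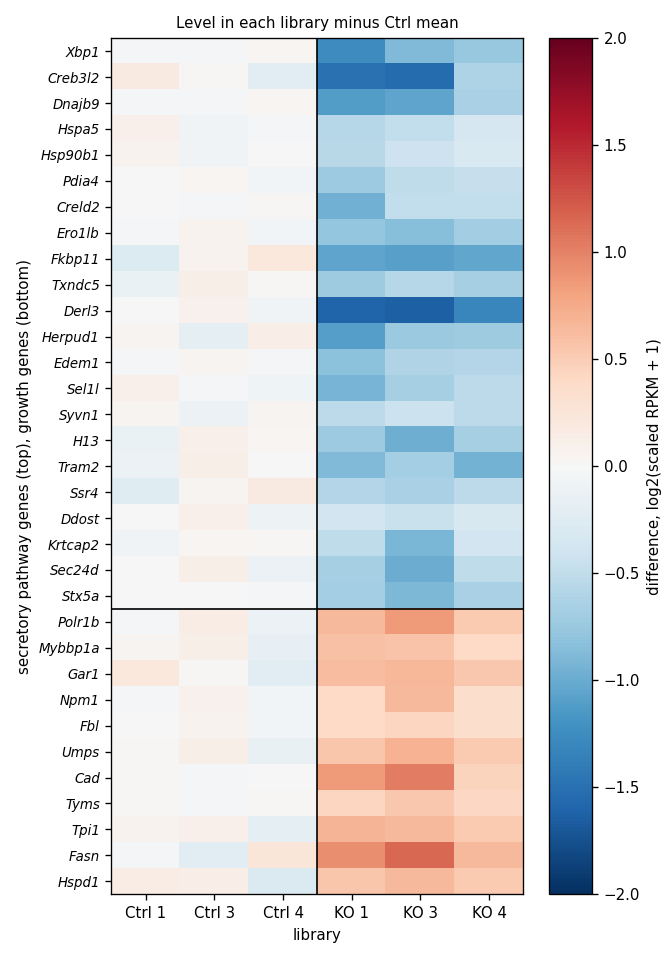
Difference of each library from the Ctrl mean, in log2(scaled RPKM + 1) by colour, for 22 secretory pathway genes (top) and 11 growth genes (bottom) in the 6 libraries. The top block is blue and the bottom block red in all 3 KO libraries, with the deepest blue in Derl3.

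Genes of the B cell surface and its signalling were lower in part. Of 27 tested genes of the antigen receptor and its coreceptors 13 fell and 1, the inhibitory receptor Lilrb4a, rose (median -0.28). The receptor's signalling chains Cd79a and Cd79b measured 1389, 1427 and 1572 in Ctrl and 918, 1099.6 and 964 in KO, and 1080.1, 1049 and 1266 in Ctrl and 766, 706 and 781 in KO, respectively, and fell by 0.56 and 0.59. Cd72, an inhibitory receptor, measured 189.6, 167 and 191 in Ctrl and 106, 72.6 and 82.4 in KO (log2 change -1.07, SE 0.12, limma adjusted p = 0.000363). The inhibitory Fc receptor Fcgr2b fell by 0.56 and lies in a run with Fcrla and Fcrlb, 3 consecutive tested genes of chromosome 1 that fell. Cd38, an ectoenzyme, fell by 0.60. Cd22 fell by 0.46 and lost its call with plasma cell libraries in the fit (limma adjusted p = 0.187). The list count was 4 in the 18-library fit and 8 without KO 1.

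Downstream of the receptor, 13 of 42 signalling genes fell and 0 rose (median -0.15). The adaptors Dok3 and Lat2 fell by 0.58 and 0.38, and the kinase Akt2 by 0.43. The count was 2 in the 18-library fit, 8 with no trend in eBayes, 7 without Ctrl 1, 6 without Ctrl 4 and 5 without KO 1. Of 33 tested genes on the B cell identity list 10 fell and 3 rose, Tcf4, Mef2b and Id2 (median -0.21). The share that rose is close to the 8.22% higher over all genes tested. Id2, like Zeb2 and Tbx21 below, was also counted above among factors of other blood lineages. Foxo1 measured 34.3, 39.6 and 39.0 in Ctrl and 23.8, 22.1 and 25.6 in KO (log2 change -0.64, limma adjusted p = 0.0018), Klf3 fell by 0.81 and Zeb2 by 0.71. Tbx21 (T-bet), a factor of atypical and antiviral B cells, measured 47.2, 37.7 and 29.3 in Ctrl and 15.8, 11.7 and 17.6 in KO (log2 change -1.28, limma adjusted p = 0.000913). Pax5, the master factor of B cell identity, measured 23.6, 20.98 and 17.0 in Ctrl and 16.9, 7.83 and 13.9 in KO and narrowly missed the threshold (log2 change -0.68, limma adjusted p = 0.0514); KO 3 was the lowest, and Pax5 was called without KO 1 (limma adjusted p = 0.026). The count of lower identity factors was 3 in the 18-library fit, 6 with no trend in eBayes, 6 without Ctrl 1 or Ctrl 4 and 5 without KO 3, and that of higher ones 0 in the 18-library fit.

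Of 31 tested genes that sense microbial products 9 fell and 2 rose, Ticam2 and Irak1bp1 (median -0.09). The peptidoglycan sensor Nod1 measured 9.18, 7.51 and 11.3 in Ctrl and 3.12, 1.71 and 3.18 in KO (log2 change -1.51, limma adjusted p = 0.000577), Tlr1 fell by 0.47 and the kinase Irak2 by 0.52. The count was 1 in the 18-library fit. Nfkbie, an inhibitor of NF-kB, fell by 0.47. Genes that guide migration were lower as well, 11 of 28 against 1 higher, Gpr34 (median -0.33). S1pr1, the receptor that lets lymphocytes leave lymphoid organs, measured 49.8, 51.6 and 60.3 in Ctrl and 23.2, 19.4 and 27.2 in KO (log2 change -1.19, SE 0.12, limma adjusted p = 0.000184). S1pr3 fell by 0.73 and Rgs10, a regulator of G protein signalling, by 1.03. The migration count was 2 in the 18-library fit, 7 with no trend in eBayes and 7 without Ctrl 1, Ctrl 4 or KO 4. Of 28 marginal zone and B1 genes 12 fell and 0 rose (4 in the 18-library fit and 7 without KO 1), and among adhesion and surface genes outside these lists Adgre5 (CD97) measured 93.9, 94.9 and 98.6 in Ctrl and 55.5, 39.4 and 52.0 in KO (log2 change -0.97, limma adjusted p = 0.000438) and the checkpoint protein Vsir (VISTA) fell by 1.29.

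Genes of a quiescence list and of acute signalling were both lower. Of 31 quiescence genes 18 fell and 0 rose (median -0.50). Btg1, an antiproliferative factor, measured 74.0, 77.0 and 92.5 in Ctrl and 43.6, 37.9 and 43.3 in KO (log2 change -0.94, SE 0.10, limma adjusted p = 0.000236). Fam46c (Tent5c), a poly(A) polymerase of secretory B cells, measured 71.8, 86.3 and 72.7 in Ctrl and 25.1, 33.9 and 36.7 in KO (log2 change -1.26, limma adjusted p = 0.0002), and the Myc antagonist Mxd4 fell by 1.32. Txnip, which limits glucose uptake, fell by 0.58. Among 30 immediate early genes there were 15 that fell and 0 that rose (median -0.41). Fos measured 122, 129 and 130.2 in Ctrl and 68.7, 76.1 and 68.0 in KO (log2 change -0.83, SE 0.08, limma adjusted p = 0.000106), Jun fell by 0.59, the RNA decay factor Zfp36 by 0.74 and the small GTPase gene Rhob by 0.97. The groups did not overlap in any of these genes. Counts were 9 in the 18-library fit for quiescence and 3 in the 18-library fit for immediate early genes.

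Several interferon genes fell. The regulator Irf7, which amplifies type I interferon, measured 13.6, 20.4 and 19.4 in Ctrl and 2.87, 4.32 and 3.93 in KO (log2 change -1.99, SE 0.16, limma adjusted p = 4.1e-05), and Irf1 measured 36.1, 33.8 and 34.3 in Ctrl and 23.1, 19.5 and 16.5 in KO (log2 change -0.80, limma adjusted p = 0.00147). Of 36 tested regulatory factors and signalling genes 14 fell and 1, the interleukin-2 receptor chain Il2ra, rose (median -0.23), and of 85 interferon-stimulated genes 22 fell and 7 rose (median -0.17), the latter close to the 8.22% higher over all genes tested. The exonuclease Isg20 measured 39.3, 45.0 and 46.7 in Ctrl and 18.9, 19.103 and 21.3 in KO (log2 change -1.10, limma adjusted p = 6.0e-05) and the nucleic acid sensor Zbp1 fell by 0.77. Among the 7, Ifi205 measured 4.14, 4.05 and 4.15 in Ctrl and 8.03, 8.45 and 10.6 in KO (log2 change 0.96, limma adjusted p = 0.000698) and its relative Ifi211 rose by 1.30; the genes of this chromosome 1 cluster are similar, so reads may be shared. Among cytokine receptors, Il9r fell by 1.39 and Il6st, the shared signalling chain of the interleukin-6 family, by 1.02. The GAAANNGAAA core of the interferon-stimulated response element, searched on both strands of the same windows, was in 57.8% of the promoters of interferon-stimulated genes and 4.02% of all tested ones. Counts were 3 in the 18-library fit, 9 with no trend in eBayes, 8 without Ctrl 1 or KO 4 and 7 without Ctrl 4 for the signalling list, and 5 in the 18-library fit for lower and 2 in the 18-library fit, 4 without Ctrl 3 and 3 without KO 1 for higher interferon-stimulated genes.

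The lysosome and antigen presentation by MHC class II were lower. Of 68 genes of lysosome and autophagy 28 fell and 0 rose (median -0.27). The cathepsins Ctsb and Ctsd fell by 0.60 and 0.66, Ctsa by 0.84 and the proton pump subunit Atp6ap1 by 0.59. Ctsa, Pltp and Neurl2 were consecutive tested genes on chromosome 2, and all 3 fell. Of 23 class II genes 12 fell and 0 rose (median -0.31), and Lgmn, an asparagine-specific protease of the antigen-processing compartment, measured 99.8, 103 and 116 in Ctrl and 50.4, 42.5 and 52.2 in KO (log2 change -1.12, SE 0.10, limma adjusted p = 6.0e-05). H2-Ob, which limits peptide loading, measured 88.5, 91.2 and 114 in Ctrl and 62.1, 46.6 and 56.5 in KO (log2 change -0.82, limma adjusted p = 0.00186). H2-Ob, H2-Oa, H2-DMa, H2-Aa and H2-Eb1 all fell and lie within 1000 kb of Ehmt2. H2-DMb1, H2-DMb2, H2-Ab1 and H2-Eb2 lie there too and were not called. For these genes, alleles linked to the targeted gene and an effect of G9a cannot be told apart. The count was 10 in the 18-library fit for the lysosome and 5 in the 18-library fit and 7 without Ctrl 4 for class II. The summed level of the class II list was 9541 to 10801 in Ctrl, and 7674 and 7554 in KO 1 and KO 4, but 9592 in KO 3, inside the Ctrl range. KO 3 also had the highest Lyz2 and C1q levels; the part of macrophage RNA in this was not tested.

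Of 28 histone genes 9 fell and 1 rose. Hist1h2ag measured 12.6, 15.2 and 13.3 in Ctrl and 5.95, 3.21 and 7.81 in KO (log2 change -1.20, limma adjusted p = 0.00495) and is 1 of 4 consecutive tested genes of the chromosome 13 histone cluster that fell. The variant H2afz, made throughout the cell cycle, rose from 363 ± 11.2 in Ctrl to 484 ± 19.8 in KO (log2 change 0.41, limma adjusted p = 0.00335). The histone count was 5 with no filter on low values, 0 in the 18-library fit, 4 with no trend in eBayes, 3 without Ctrl 3, 5 without KO 3 and 4 without KO 4. Of 14 tested nuclear noncoding RNAs 2, Malat1 and Neat1, fell, by 0.77 and 0.98, and 1, Mir155hg, rose by 0.83 (median 0.16). Counts this small are near the 8.22% higher and 9.25% lower over all genes tested. The higher count was 2 with a filter at 5 RPKM, 2 with a replicate block and 0 in the 18-library fit. It was 2 with library weights and 2 without KO 3 or KO 4. The lower count was 1 with a filter at 5 RPKM.

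Genes of growth rose together, each by a small amount. Of 93 ribosome biogenesis genes 52 rose and 0 fell, with a median of 0.37. Polr1b, a core subunit of RNA polymerase I, measured 17.3, 19.7 and 16.3 in Ctrl and 28.3, 32.7 and 26.0 in KO (log2 change 0.68, SE 0.11, limma adjusted p = 0.00272). Npm1, the abundant nucleolar protein nucleophosmin, measured 336, 365 and 331 in Ctrl and 452, 540.1 and 438 in KO (log2 change 0.46, limma adjusted p = 0.00692). Mybbp1a and Gar1, of the pseudouridylation complex, rose by 0.52 and 0.61, and the RNA methyltransferase Fbl by 0.39. The lowest KO library exceeded the highest Ctrl library in each of these genes, but the margin was narrow. The count was 3 in the 18-library fit, 34 with no trend in eBayes, 33 without Ctrl 1, 22 without Ctrl 4 and 23 without KO 1. Among 81 ribosomal proteins of the cytosol 0 rose and 1, Rps27, fell (median -0.03), and the fall was lost without Ctrl 1, Ctrl 4, KO 1 or KO 4. The difference between the lists was not tested.

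Of 66 genes of DNA replication and nucleotide synthesis 39 rose and 1, Impdh1, fell (median 0.33). Cad, which starts pyrimidine synthesis, measured 22.03, 21.3 and 21.9 in Ctrl and 39.9, 45.0 and 30.1 in KO (log2 change 0.77, SE 0.13, limma adjusted p = 0.00334), and Umps, which completes it, measured 48.4, 51.3 and 42.7 in Ctrl and 70.2, 77.2 and 68.4 in KO (log2 change 0.59, limma adjusted p = 0.0023). Pfas, of purine synthesis, rose by 0.68 and thymidylate synthase Tyms by 0.46. The count was 0 in the 18-library fit, 21 without Ctrl 4 and 19 without KO 1. Of 77 mitosis genes 8 rose, close to the 8.22% over all genes tested, and 0 fell (median 0.17), among them Pbk (0.48) and Spc25 (0.48); the count was 0 in the 18-library fit, 5 with no trend in eBayes, 13 without Ctrl 3, 3 without Ctrl 4 and 5 without KO 1. The proliferation marker Mki67 measured 47.0, 50.5 and 56.1 in Ctrl and 52.96, 49.2 and 54.5 in KO (log2 change 0.03, limma adjusted p = 0.847), and Myc measured 32.2, 34.1 and 33.1 in Ctrl and 40.2, 34.5 and 43.1 in KO (log2 change 0.23, limma adjusted p = 0.12). Neither passed the test with all 6 libraries, and Myc was called without KO 3 (limma adjusted p = 0.0335).

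Metabolic enzymes followed. Of 35 genes of glycolysis and the pentose phosphate path 14 rose and 3 fell, Pfkfb4, Bpgm and Pgm1 (median 0.27). Tpi1 measured 229, 236 and 193 in Ctrl and 349, 344 and 316 in KO (log2 change 0.62, SE 0.09, limma adjusted p = 0.00149), Aldoa rose by 0.45 and the lactate transporter Slc16a1 by 0.85. Pdk1 rose by 0.73 while its relative Pdk2 fell, as given above. The list of amino acid transport and one-carbon metabolism was mixed, with 9 of 35 tested genes higher and 6 lower (median 0.14). Among those that rose, Asns, which makes asparagine, measured 23.1, 21.1 and 18.9 in Ctrl and 39.0, 53.8 and 36.2 in KO (log2 change 0.98, limma adjusted p = 0.00126). The one-carbon enzymes Shmt1 and Mthfd1 rose by 0.79 and 0.60. Of 39 genes of cholesterol and fatty acid synthesis 11 rose and 0 fell (median 0.26). Fatty acid synthase Fasn measured 12.2, 10.7 and 15.1 in Ctrl and 24.7, 29.1 and 20.1 in KO (log2 change 0.91, limma adjusted p = 0.00268), and the desaturases Scd2 and Fads1 rose by 0.53 and 0.70. Of 37 cytosolic and mitochondrial chaperones 10 rose and 0 fell, among them Hspd1 (0.58) and Fkbp4 (0.47). Of 75 genes of the respiratory chain 2 rose, Sdhd and Cycs, and 0 fell (median 0.06), a count that was 0 without Ctrl 1 and 1 without Ctrl 3, Ctrl 4 or KO 1. Counts were 4 in the 18-library fit and 8 without Ctrl 4 or KO 1 for higher and 0 in the 18-library fit and 1 without Ctrl 1, Ctrl 4 or KO 1 for lower glycolysis genes, 0 in the 18-library fit, 18 with library weights and 7 without Ctrl 4 or KO 1 for lipid synthesis and 1 in the 18-library fit, 4 with no trend in eBayes and 4 without Ctrl 1, Ctrl 4 or KO 1 for chaperones.

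A few other proteins of histone H3 lysine 9 methylation rose slightly. Of 14 tested genes on the list of methyltransferases and HP1 proteins 5 rose and 0 fell (median 0.18). The 5 were the methyltransferase Suv39h1, the HP1 proteins Cbx3 and Cbx5, and Trim28 and Morc2a, which are neither. Suv39h1, a trimethylase, measured 38.7, 38.8 and 32.5 in Ctrl and 47.5, 45.0 and 45.4 in KO (log2 change 0.32, limma adjusted p = 0.0359); its call was lost without Ctrl 1, Ctrl 4, KO 1, KO 3 or KO 4 (limma adjusted p = 0.0501 to 0.112). The list count was 0 in the 18-library fit, 1 with no trend in eBayes, 0 without Ctrl 1, 2 without Ctrl 4, KO 3 or KO 4 and 1 without KO 1. Uhrf1, which reads lysine 9 methylation and serves DNA methylation, measured 137, 144 and 130.0 in Ctrl and 187, 203 and 168 in KO (log2 change 0.44, limma adjusted p = 0.00764), and Zfp518a, a zinc finger partner of G9a, rose by 0.58; these were the 2 called of 10 tested genes of the G9a complex list, and 0 fell. Of 12 demethylases of this mark 0 passed limma in either direction, while 2 were lower and 0 higher at an unadjusted p under 0.05. Around Ehmt2, 6 of 81 tested genes within 1000 kb were higher and 14 lower, beside 8.22% and 9.25% over all genes tested. Among the 14 were antigen presentation genes such as Tapbp, H2-K1, H2-Eb1 and H2-Ob. The largest change there was D17H6S56E-5, 92.5 kb from Ehmt2 (midpoint to midpoint) and on chromosome 17 from 34996678 to 35000774, which measured 59.8, 65.7 and 69.2 in Ctrl and 18.2, 16.8 and 18.1 in KO (log2 change -1.82, SE 0.09, limma adjusted p = 7.4e-07). For any gene in this window, alleles linked to the targeted gene and an effect of G9a cannot be told apart.

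Plasma cells of LPS-treated mice of the same genotypes allow a test of whether the KO effect differs by cell type; the labels do not say whether both cell types came from the same mice, and the fit treats the libraries as independent. They were CD138+ cells with low or intermediate B220, with 3 Ctrl and 3 KO libraries, and the 12 libraries were fitted together over 10391 genes. In plasma cells 456 genes were higher (4.39%) and 413 lower (3.97%). The effect in activated cells was above that in plasma cells for 49 genes (0.472%) and below it for 228 (2.19%). Without 1 library the numbers above were 23 without activated Ctrl 4, 31 without activated KO 3, 23 without plasma Ctrl 1, 29 without plasma KO 1 and 30 without plasma KO 3. The numbers below fell to 144, 147 and 142 without activated Ctrl 4, plasma Ctrl 1 and plasma KO 3. The 18-library fit called 0 above and 20 below. The comparisons use separate Ctrl libraries.

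Akr1c13, Afp and Ly6c2 rose in both cell types. Akr1c13 rose by 4.33 (limma adjusted p = 7.1e-10) in plasma cells, Afp by 3.73 (limma adjusted p = 7.1e-10) and Ly6c2 by 2.39 (limma adjusted p = 1.4e-08), and the difference between cell types was not called for any of the 3 (limma adjusted p = 0.214, 0.0964 and 0.556). Of 826 genes higher in activated cells and tested in both, 163 were also higher in plasma cells, which is 19.7% of the activated and 38.8% of the plasma cell genes. For lower genes the overlap was 209 of 931, 22.4% of the activated and 53.3% of the plasma cell genes. Of the 826 higher genes 731, and of the 931 lower genes 754, had the same sign of change in plasma cells (88.5% and 81.0%, beside 49.2% and 50.8% of all genes), with median plasma cell changes of 0.193 and -0.193. Wfdc15a rose more in plasma cells, from 0.111 ± 0.193 in plasma cell Ctrl to 27.03 ± 0.587 in plasma cell KO (difference -2.41, SE 0.26, limma adjusted p = 0.000109); with a pseudocount of 0.1 that difference was not called (limma adjusted p = 0.119).

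Part of the plasma cell program fell in activated cells and less in plasma cells. Jchain went from 5955 ± 323 in plasma cell Ctrl to 5818 ± 382 in plasma cell KO, a change of -0.03, and its effect differed between cell types (difference -1.36, SE 0.14, limma adjusted p = 0.000109). Derl3 changed by -0.57 in plasma cells (difference -0.97, SE 0.12, limma adjusted p = 0.000228) and Bhlha15 by -0.40 (difference -0.99, SE 0.15, limma adjusted p = 0.00191). In the 12-library fit, where 37 genes of that list were tested, 11 had an effect below that in plasma cells and 1, the amino acid transporter chain Slc3a2, above (difference 0.40, limma adjusted p = 0.0491). The Slc3a2 call was lost when any library other than activated Ctrl 3 or plasma KO 3 was left out (limma adjusted p = 0.0646 to 0.128). Xbp1 changed by -0.33 there (difference -0.67, SE 0.15, limma adjusted p = 0.027), a difference that was lost without activated Ctrl 4, plasma Ctrl 1, plasma Ctrl 4, plasma KO 3 or plasma KO 4 (limma adjusted p = 0.0519 to 0.0825). Of the ER chaperones 12 of 39 fell in plasma cells too. Irf7 changed by -0.23 in plasma cells (difference -1.77, SE 0.26, limma adjusted p = 0.0012).

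B cell surface genes differed between cell types as well. Of the 27 receptor and coreceptor genes 8 were higher and 2 lower in plasma cell KO, and 10 had an activated effect below the plasma cell effect. Cd38 rose by 0.64 in plasma cells and fell in activated cells (difference -1.27, SE 0.16, limma adjusted p = 0.000436), and Btg1 rose by 0.72 in plasma cells (difference -1.69, SE 0.22, limma adjusted p = 0.000468). S1pr1 changed by 0.22 there and was not called, with a difference of -1.43 (limma adjusted p = 0.000195). In the opposite direction, Emb changed by 0.26 in plasma cells (difference 1.23, SE 0.13, limma adjusted p = 0.000128), and Vpreb3, a surrogate light chain-like protein of B cells, measured 282, 293 and 257 in Ctrl and 150.2, 129 and 144 in KO in activated cells and fell further in plasma cells, by 2.06 (difference 1.06, SE 0.14, limma adjusted p = 0.000584). Ribosome biogenesis was higher for 14 and lower for 1 of its genes in plasma cells, and cholesterol and fatty acid synthesis was higher for 11 and lower for 0. For these lists the difference between cell types was rarely called. It was above for 1 and below for 0 of 93 ribosome biogenesis genes, and 0 in either direction for 39 lipid synthesis genes.

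**Figure D4:**
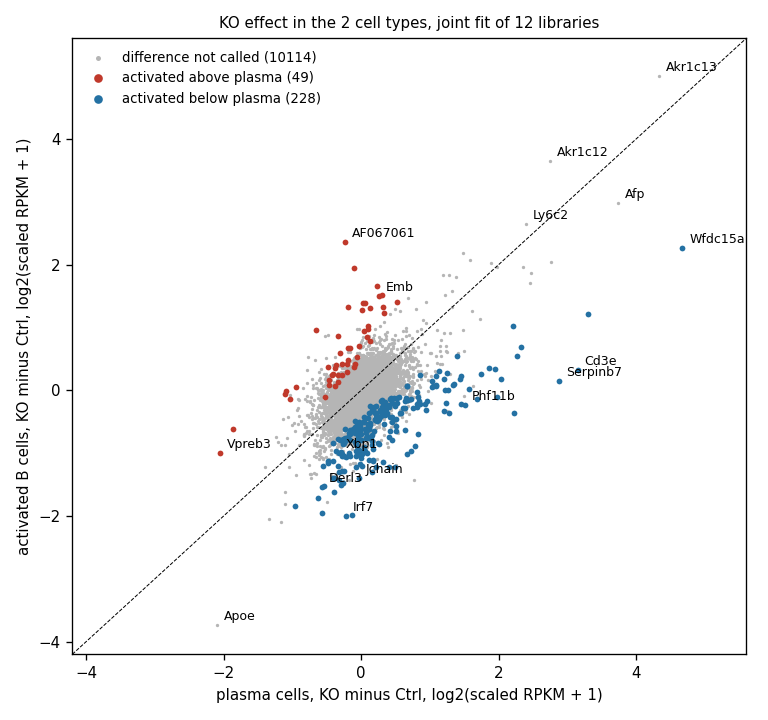
KO minus Ctrl change in plasma cells (x axis) and in activated B cells (y axis) from 1 fit of 12 libraries, in log2(scaled RPKM + 1), with 1 point per gene and the dashed line where both are equal. Red points (49) lie above and blue points (228) below the line by the test; Akr1c13, Afp and Ly6c2 lie near the line at the upper right, while Irf7, Jchain and Derl3 lie below it.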

How the data were processed

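RNA from sorted activated B cells was measured in 6 libraries, with 6 plasma cell libraries for 1 comparison. The authors deposited RPKM for 12960 genes. STAR and the build mm10 are named in the submitters' processing notes; versions, read counter, gene models and read totals were not given in the sources used here. Depth was estimated from the steps between low values and covers counting error only. RefSeq matched 12946 genes by Entrez identifier, and positions are on GRCm38, which mm10 denotes.

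Each library's deposited RPKM was scaled by median of ratios (factors 0.985 to 1.018). Genes that averaged at least 1 RPKM in a group were kept (10067) and set to log2(scaled RPKM + 1). The 6 libraries were fitted alone with limma 3.58.1 (lmFit, eBayes with trend, two-sided) in R 4.3.3, without a replicate block, with Benjamini-Hochberg adjustment over all genes tested; a joint fit of 12 libraries, scaled together, tested the difference between cell types. The procedure was tested on simulated data. Tables were made with Python 3.11.15 and pandas 2.3.3 on numpy 2.4.6, and plots with matplotlib 3.10.9.

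The members, the 56 gene lists and the tests were chosen with earlier results of these data known. AI427809 was taken out of the Ly6 and Gml list after its values were seen, because RefSeq places it on chromosome 4. The rule for named genes took, per direction, at most 12 called genes by size and 6 by adjusted p, if they reached 5 RPKM without overlap between groups, at most 4 in each list, and 5 per direction in the contrast of cell types. It skipped antigen receptor segments and symbols of the Gm, Rik and LOC kind. Members behind counts of 5 or fewer, and genes cited from runs or markers, were named after their values were seen, and some genes the rule reached are not reported here. Alternatives changed the pseudocount, filter, scaling, eBayes settings, library weights, the libraries fitted and the replicate block, and left out each library.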

Additional observations from a re-analysis of the deposited data

Results flagged for a closer look

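The KO effect differed between activated B cells and plasma cells for these genes by the limma test of the difference itself, activated minus plasma, in the joint fit of 12 libraries. No cause was tested for any of them.

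Among genes that fell in activated B cells, the differences were -1.77 for Irf7, -1.85 for Prg2, -1.40 for Ephx1, -1.08 for Hid1, -1.23 for Adssl1, -0.97 for Derl3, -1.36 for Jchain, -0.98 for Serinc5 and -0.88 for D17H6S56E-5. Jchain changed by -0.03 in plasma cells, while D17H6S56E-5 fell there too, by 0.96 (limma adjusted p = 5.5e-07). Among genes that rose in activated B cells, the differences were 2.60 for AF067061, 1.23 for Emb and 1.27 for Fntb, which encodes a subunit of the enzyme that attaches farnesyl groups; Fntb changed by 0.02 in plasma cells.

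Other differences went with a change in plasma cells. Chchd10, a mitochondrial protein, fell by 1.04 there (difference 0.90), and Vpreb3 fell in both cell types (difference 1.06). Serpinb7 went from 5.64 ± 0.791 in plasma cell Ctrl to 47.8 ± 5.77 in plasma cell KO and measured 0.444 to 1.25 in activated libraries on the same scale (difference -2.73). The T cell receptor gene Cd3e went from 0.0759 ± 0.0660 in plasma cell Ctrl to 8.62 ± 1.46 in plasma cell KO and was at most 0.653 in activated libraries (difference -2.84). Phf11b (difference -1.74), Tmsb4x (difference -1.43), which encodes the actin-binding thymosin β4, and Fgd2 (difference -1.26) rose in plasma cells.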

How the results depend on the processing

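In no alternative was a called gene called in the opposite direction. Counts are given as higher, then lower. For the activated comparison (828 and 931), the 18-library fit gave 55 and 174, and leaving out 1 library gave 391 to 734 and 571 to 755. For the difference from plasma cells (49 and 228), the 18-library fit gave 0 and 20, library weights gave 100 and 401, and leaving out 1 library gave 23 to 52 and 142 to 222. The cause was not tested, apart from the smaller number of samples when a library was left out. With plasma cells in the fit, 39.3% of called genes were higher in KO, beside 47.1% with the 6 libraries.

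With a replicate block the counts were 847 and 896, and 57 and 220 for the difference. Same-numbered libraries did not deviate together (correlations -0.096, 0.019 and 0.101), so the numbers are not taken as pairs. Among the genes named here, Pax5 alone changed its side of the threshold under the block (limma adjusted p = 0.0299).

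Signs turned for few values. With plasma cells in the fit, Ehmt2 was -0.014 and Mki67 -0.00. Leaving out 1 library gave -0.069 to 0.114 for Ehmt2, -0.249 to 0.051 for Irf4, -0.027 to 0.093 for Mki67, -0.039 to 0.285 for Serpinb7 and -0.40 to 1.67 for Lyz2, whose value was -0.007 with library weights. The germline median was -0.035 (22 genes) with no filter on low values and in the 18-library fit. Of 167 genes named here, 73 were no longer called in the 18-library fit. Precision is limited by 3 libraries a group and, in KO 3, by the fewest estimated reads.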
